A study of Mus musculus with 27 samples.

Results

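Selenoproteins are the proteins that carry selenium as the amino acid selenocysteine. The set described here held 30 mouse genes, taken by gene symbol from the 56691 genes of the deposited table. Of these, 19 encode selenoproteins other than the glutathione peroxidases, and 11 encode receptors for selenium transport or the enzymes and factors that make and insert selenocysteine. A filter on low counts left 26 of the 30 genes for testing, 16 of them selenoproteins and 10 of them transport and insertion genes. The other 4 genes, Dio1, Dio2, Dio3 and Lrp2, are given by their counts only.

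The libraries were bulk RNA-seq of mouse stomach organoids, which are epithelial cultures grown in Matrigel in a proliferation medium, with 21 libraries in 7 groups of 3. The Gpx4 knockout (KO) groups were Mist1+ organoids from Gpx4F/F;Mist1Cre/ERT2;RFPLSL mice at passages 5, 10 and 15. The wild-type (WT) groups were Mist1+ organoids from Mist1Cre/ERT2;RFPLSL mice at the same 3 passages, and the last group was Mist1- organoids labelled WT at passage 5. All groups shared the Cre driver and the reporter per the labels, the donors were adult mice, and Mist1+ cells were sorted by red fluorescence. Cre acts here from the Mist1 (Bhlha15) locus, so that recombination is limited to cells that expressed Mist1 while Cre was active, and to their progeny. Another 6 of the 27 samples, sorted cells from diet groups, were not analysed here. Nothing in the labels ties the 3 libraries of a group to separate cultures or mice, and the p-values therefore reflect only the spread between libraries, which may be technical.

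Selenocysteine is encoded by UGA, otherwise a stop codon. A stem loop in the 3′ untranslated region of the mRNA (the SECIS element) recruits the binding protein Secisbp2 and the elongation factor Eefsec, which delivers the selenocysteine tRNA. That tRNA is charged with serine, phosphorylated by Pstk and converted by Sepsecs, with selenophosphate from Sephs2 as the selenium donor. Selenoprotein mRNAs in other tissues are known to differ in how far they are kept when selenium is short, and those with a UGA upstream of an intron can be degraded as if they held a premature stop. Gpx4, the deleted gene in the knockout label, is itself a selenoprotein that reduces lipid hydroperoxides.

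Library totals ranged from 13805585 to 19608956 counts in genes. Gpx4 was 58.8, 57.4 and 56.9 FPKM in KO libraries and 76.4, 71.7 and 77.8 FPKM in WT libraries at passage 5, so its counts remained present under the knockout label, and a count over the whole gene does not show which exons were deleted. It was 58.3, 56.5 and 51.1 FPKM in KO libraries and 65.1, 72.3 and 67.1 FPKM in WT libraries at passage 10, 50.3, 48.2 and 50.9 FPKM in KO and 113, 60.2 and 73.9 FPKM in WT libraries at passage 15, and 65.0, 67.1 and 68.4 FPKM in Mist1- libraries. FPKM here is the count per kilobase of exon, scaled to the library total. Bhlha15 was 1.44, 1.78 and 1.51 FPKM in organoids labelled Mist1+ and 3.66, 2.46 and 2.79 FPKM in organoids labelled Mist1- at passage 5, the reverse of the order the labels name. Epithelial genes were high in every library (Epcam 183 to 314 FPKM, Krt8 782 to 1521 FPKM), while the markers of other gastric cell types were mixed. Among neck cell and metaplasia markers, summing to 406 to 1314 FPKM, the mucin Muc6 reached 0.0569 FPKM at most and the trefoil factor Tff2 was 29.1 to 841 FPKM. Chief cell markers summed to 105 to 193 FPKM, with Cblif at 0.127 FPKM at most and the pepsinogen Pgc at 1.36 to 23.1 FPKM. Parietal markers summed to 45.4 to 139 FPKM, although the proton pump chains Atp4b and Atp4a reached only 0.119 and 1.13 FPKM. Summed fibroblast markers (6 genes) reached 0.278 FPKM, endothelial markers (4 genes) 0.313 FPKM and immune markers (6 genes) 2.27 to 13.7 FPKM, with the leukocyte antigen Ptprc at 0.063 FPKM at most. The 3 WT libraries at passage 15 stood apart from each other: the biological coefficient of variation, the replicate spread beyond counting error, was 21.1% there and 1.89% to 3.07% in the other 6 groups. Every result that uses those libraries carries this limit. The spread used in all tests was fitted over the 21 libraries together, with a common coefficient of 8.18%. The WT passage 15 libraries therefore widen the errors of comparisons that do not use them. In comparisons that use them, the errors and p-values can be too small.

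The selenocysteine codons were read from GENCODE M21 transcripts on GRCm38, and 19 members had at least 1. Of these, 17 had exactly 1 codon, Dio2 had 2, and Selenop had 10 in a reading frame of 380 codons, the first at codon 59 and the last at codon 377. The windows below show the codon of the members whose levels the results turn on, with the TGA in capitals, 15 transcript bases before it and 12 after it.
Selenop, first of 10, chr15:3274848-3274850, plus strand: cttcttcaagccagcTGAtacttgtgtctt
Selenop, last of 10, chr15:3279696-3279698, plus strand: accaggaagtgaaaaTGAcattcaaactaa
Txnrd1, chr10:82896037-82896039, plus strand: ctccagtctggctgcTGAggttaagcccca
Selenos, chr7:66088844-66088846, plus strand: ccatcatctggcggcTGAaactaagactct
Selenon, chr4:134542338-134542340, minus strand: gacgaccagtcctgcTGAggttccgggcgg
Selenom, chr11:3516273-3516275, plus strand: gagacctgtggaggaTGAcagttgaatcgc
Selenoh, chr2:84670381-84670383, minus strand: gagcattgtacgagcTGAcgcgtgtacggc
Selenow, chr7:15920464-15920466, minus strand: gtgtattgtggagctTGAggctataagccc
Sephs2, chr7:127273731-127273733, minus strand: tccggcatgaagggcTGAggctgcaaggtc

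The place of the codon and the codons before it differed between members. In 7 of the 17 members with 1 codon (Txnrd1, Txnrd2, Txnrd3, Selenoi, Selenok, Selenoo and Selenos) it lay within 10 codons of the end of the reading frame. In Selenom, Selenoh, Selenow, Selenot and Selenoo a cysteine codon stood 3 codons before the TGA, as in the tgt of the Selenom and Selenow windows. In Selenon, Txnrd1, Txnrd2 and Txnrd3 a cysteine codon (tgc in the windows shown) came directly before it. Sephs2, Msrb1, Selenof, Dio1 and Dio3 had none of these features.

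Transcripts of the set spanned a wide range of levels. The 26 tested members had a median of 9.57 FPKM over the 21 libraries, against 4.87 FPKM over all 15115 genes tested. Selenot, a thioredoxin-like protein of the endoplasmic reticulum (ER), was highest at 89.5 FPKM, followed by the small redox protein Selenow (80.0 FPKM), the cytosolic thioredoxin reductase Txnrd1 (78.2 FPKM), Selenos of ER-associated degradation (62.0 FPKM) and the secreted selenium carrier Selenop (59.1 FPKM). One pseudogene named for Selenot can share its reads. These are means over libraries, and Selenot, Selenow and Txnrd1 overlapped in their library ranges (75.0 to 96.3, 66.1 to 147 and 61.2 to 97.1 FPKM).

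Below these came Selenok, a palmitoylation cofactor of the ER (43.5 FPKM), Selenof, a partner of glycoprotein folding (39.9 FPKM), the selenophosphate synthetase Sephs2 (33.7 FPKM), the nuclear DNA-binding Selenoh (33.6 FPKM) and the methionine sulfoxide reductase Msrb1 (22.6 FPKM). Selenok and Selenof overlapped in range, as did Sephs2 and Selenoh. The other 16 tested members lay between 1.38 FPKM for Selenom, an ER redox protein, and 13.7 FPKM for Selenoi, the ethanolamine phosphotransferase of phospholipid synthesis. Most of the insertion factors sat in this lower band, with Secisbp2l at 9.75, Trit1 at 9.39, Trnau1ap at 8.00, Eefsec at 7.6, Secisbp2 at 7.10, Sepsecs at 6.43 and Pstk at 3.57 FPKM. The mitochondrial and testis-enriched thioredoxin reductases Txnrd2 and Txnrd3 were at 1.89 and 3.49 FPKM. The deiodinases, which activate or inactivate thyroid hormone, were near absent, with 30 counts for Dio1, 10 for Dio2 and 1 for Dio3 over all 21 libraries, and the endocytic receptor Lrp2 had 15.

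**Figure D1:**
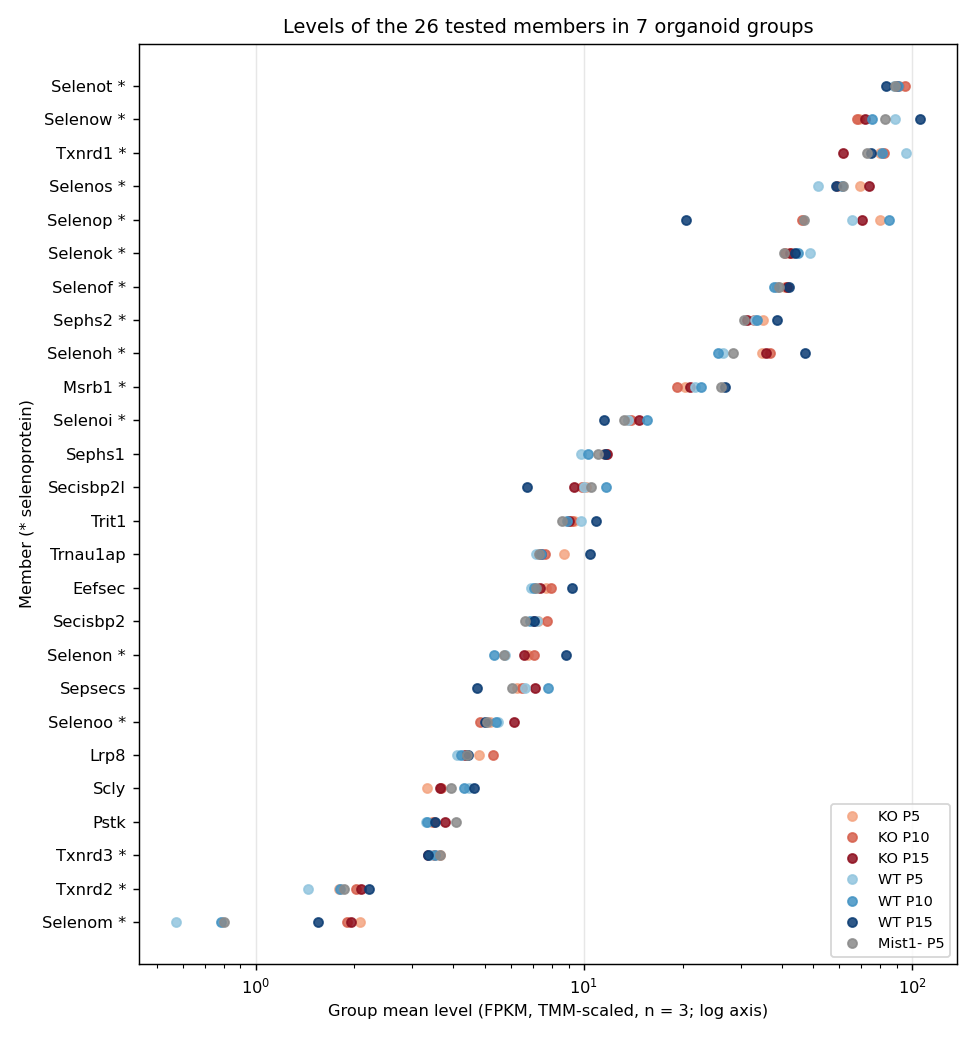
Mean level (TMM-scaled FPKM, log axis) of each of the 26 tested members in the 7 groups of 3 libraries, ordered by the mean over libraries; asterisks mark selenoproteins. Most members form tight rows, while Selenop (20.5 FPKM in WT passage 15) and Selenom spread most widely.

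Summed over the set, selenoprotein transcripts had group means between 548 and 596 FPKM. Single libraries of WT passage 15 spread more widely, from 494 to 654.5 FPKM. The selenoproteins together gave 596 ± 4.83, 552 ± 11.2 and 574 ± 2.53 FPKM in KO organoids at passages 5, 10 and 15, against 588 ± 6.53, 589 ± 4.33 and 574 ± 80.3 FPKM in WT organoids and 548 ± 5.46 FPKM in Mist1- organoids (SD, n = 3 each). The transport and insertion genes together gave means of 69.3 to 73.2 FPKM in the 7 groups. Between groups, the ratio of the highest to the lowest mean was 4.13 for Selenop and 3.64 for Selenom, and it was 1.83 or less for the other 24 tested members. Without WT passage 15 it was 1.84 for Selenop and unchanged for Selenom. Txnrd3 (1.10), Selenof (1.11) and Selenot (1.15) varied least.

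The comparison of KO with WT organoids asks what loss of Gpx4 in the Mist1 lineage goes with at each passage. At passage 5, the ER proteins Selenom and Selenos, the nuclear Selenoh, the carrier Selenop and the selenophosphate synthetase paralog Sephs1 rose, while the selenocysteine lyase Scly and Txnrd1 fell. At passage 10, Selenom, Selenoh, Selenon, the Selenop receptor Lrp8 and Sephs1 rose, while Selenop and Sepsecs fell. At passage 15, Selenop rose most, with Sepsecs, Secisbp2l, Selenoi, Selenos and Selenoo, while Selenow, Trnau1ap, Selenon, Selenoh, Scly, Eefsec, Sephs2, Txnrd1 and Trit1 fell. A gene is said to rise or fall where edgeR's quasi-likelihood test gave an adjusted p below 0.05, by Benjamini-Hochberg over all 15115 genes.

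These counts have to be read against the whole transcriptome. At passage 5, 5 of 26 members rose and 2 fell, where 13% of all tested genes rose and 17% fell (30.1% in either direction). At passage 10 the counts were 5 and 2, where 15.9% rose and 18.5% fell (34.4%). At passage 15 they were 6 and 9, where 23.6% rose and 25.3% fell (48.9%). The members' share of calls was 26.9%, 26.9% and 57.7% at the 3 passages, near the background each time. The median log2 fold change of the members was 0.07, 0.03 and -0.03, and that of all tested genes was -0.0041, -0.011 and -0.0066.

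WT passage 15 enters these errors. Without its libraries in the fit, 10 members rose and 4 fell at passage 5 (22% and 25% of all genes, 47% in all), and 7 rose and 8 fell at passage 10 (24.5% and 27.2%, 51.7% in all). With only the 6 libraries compared in the fit, 3 of the 15 calls at passage 15 remained, Selenop, Sepsecs and Selenon. Over the 3 passages, 8 members were called at none, 9 at 1, 7 at 2 and 2 at all 3. Selenop and Selenoh were called at all 3, and both changed direction between passages. Of the 9 members called more than once, 5 kept 1 direction (Selenom, Selenos, Sephs1, Scly and Txnrd1) and 4 did not (Selenop, Selenoh, Selenon and Sepsecs).

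**Figure D2:**
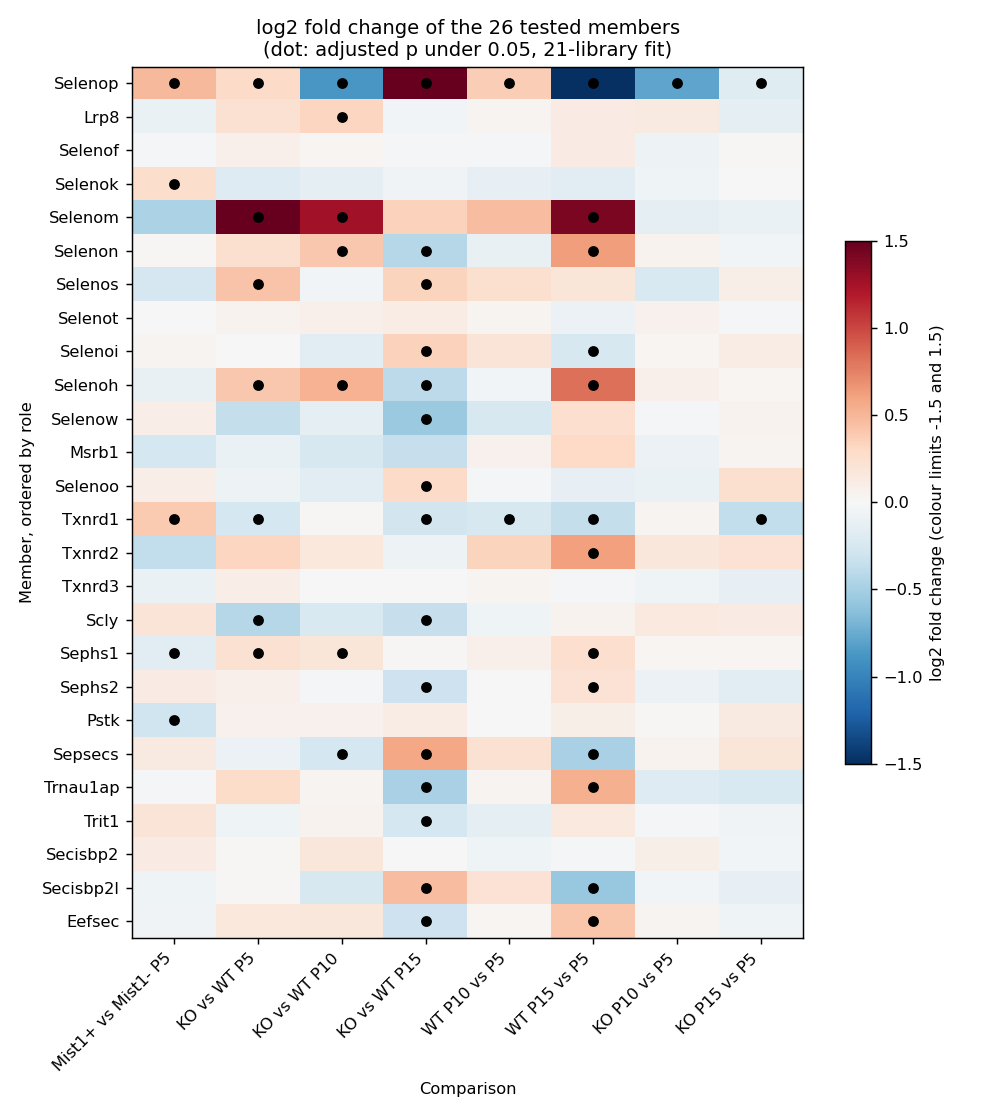
Log2 fold change of the 26 tested members, ordered by role, in 8 comparisons of 3 against 3 libraries; red is higher in the first-named group and dots mark an adjusted p under 0.05. The Selenop row alternates in colour along the KO against WT columns (0.28, -0.88 and 1.78).

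Selenop carries selenium from the liver to other tissues in plasma, and is also made locally. It was 82.2, 76.2 and 81.3 FPKM in KO libraries and 66.0, 63.2 and 67.6 FPKM in WT libraries at passage 5. All KO libraries lay above all WT libraries, and the difference passed the test (log2 0.28 ± 0.05 SE, adjusted p = 0.000126). At passage 10 the order was reversed, with 48.2, 44.6 and 45.7 FPKM in KO libraries and 84.4, 83.9 and 85.9 FPKM in WT libraries (log2 -0.88 ± 0.05, adjusted p = 1.81e-11). At passage 15 it was 70.6, 70.0 and 70.0 FPKM in KO libraries and 21.5, 19.5 and 20.5 FPKM in WT libraries (log2 1.78 ± 0.05, adjusted p = 1.37e-16). The groups did not overlap at any passage. The 3 WT libraries of passage 15, which differed widely elsewhere, were close to each other for Selenop.

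The only named partner that shares exons with Selenop on the opposite strand in GENCODE M21 is Ccdc152, and the strand setting of the counting is not stated. Ccdc152 had 0.0834 to 0.865 FPKM in the 21 libraries. The promoter of Selenop is shown because its level moved most in the set. In RefSeq's table (GRCm38.p6) 3 promoters are given for the gene, and the one at chr15:3270727-3271026, plus strand, holds the forkhead-type motif TGTTTAC on the minus strand, 24 bases before the start site, in capitals here.
Selenop promoter: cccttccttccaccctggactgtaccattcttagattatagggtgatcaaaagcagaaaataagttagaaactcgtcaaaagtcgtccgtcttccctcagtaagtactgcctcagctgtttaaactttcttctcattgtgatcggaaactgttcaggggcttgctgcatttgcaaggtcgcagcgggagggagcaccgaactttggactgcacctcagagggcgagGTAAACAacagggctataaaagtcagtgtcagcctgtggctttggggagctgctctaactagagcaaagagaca

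Promoters were 250 bases before to 50 after the start, read on both strands, and 29 members had 36 of them. The motif TGTTTAC was in 2 of the 36 (5.56%, Selenop and Sephs1) and in 3.65% of all 32851 promoters of that length. A match is a run of letters, not evidence of binding.

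Lrp8, the receptor that takes up Selenop in brain and testis, was 5.17, 5.44 and 5.26 FPKM in KO libraries and 3.89, 4.21 and 4.54 FPKM in WT libraries at passage 10. The KO libraries were all higher, and the difference passed the test (log2 0.33 ± 0.10, adjusted p = 0.0151). Without KO replicate 2 (adjusted p = 0.0512) or WT replicate 1 (adjusted p = 0.0779) of that passage it did not. Lrp8 averaged 4.81 ± 0.03 FPKM in KO and 4.10 ± 0.17 FPKM in WT libraries at passage 5 (adjusted p = 0.0962), and 4.33 ± 0.13 and 4.44 ± 0.93 FPKM at passage 15 (adjusted p = 0.765).

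Among the ER selenoproteins, Selenom had the largest fold change and the lowest level. It was 1.68, 2.65 and 1.92 FPKM in KO libraries and 0.687, 0.381 and 0.648 FPKM in WT libraries at passage 5, with no overlap (log2 1.86 ± 0.35, adjusted p = 0.000356). Its counts were 8 to 75 per library, so counting error is a large part of these values. At passage 10 it was 2.69, 1.25 and 1.75 FPKM in KO libraries and 1.01, 0.485 and 0.856 FPKM in WT libraries (log2 1.26 ± 0.33, adjusted p = 0.00539). Without KO replicate 1, the highest library, that adjusted p was 0.0542. At passage 15 the libraries overlapped, with 2.34, 1.68 and 1.82 FPKM in KO and 2.09, 1.47 and 1.08 FPKM in WT (adjusted p = 0.356).

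Selenos, which with Derlins and VCP draws misfolded proteins out of the ER, was 67.1, 70.0 and 70.5 FPKM in KO libraries and 51.2, 51.9 and 51.5 FPKM in WT libraries at passage 5. The KO libraries were all higher (log2 0.43 ± 0.10, adjusted p = 0.00217). At passage 10 the groups overlapped, at 59.1 FPKM on average in KO and 60.9 FPKM in WT libraries (log2 -0.04, adjusted p = 0.768). At passage 15, KO libraries were at 73.2, 74.0 and 73.7 FPKM and WT libraries at 72.3, 45 and 58.3 FPKM (log2 0.33 ± 0.10, adjusted p = 0.00842). The 3 KO libraries were within 1 FPKM of each other there, and WT replicate 1 lay close below them.

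Selenon, a calcium-dependent redox protein of the ER whose human gene is mutated in a congenital myopathy, was 7.39, 7.03 and 6.64 FPKM in KO libraries and 4.72, 5.57 and 5.63 FPKM in WT libraries at passage 10. All KO libraries lay above the WT ones (log2 0.40 ± 0.09, adjusted p = 0.00172). At passage 15 the direction was opposite, with 6.54, 6.71 and 6.42 FPKM in KO libraries and 9.25, 8.27 and 9.03 FPKM in WT libraries (log2 -0.43 ± 0.09, adjusted p = 0.000545). The KO level was nearly flat over the passages, at means of 6.76, 7.02 and 6.56 FPKM, and it was the WT level that differed between the 2 contrasts, at 5.31 FPKM in passage 10 and 8.85 FPKM in passage 15. Selenof, Selenok and Selenot passed the test at no passage in KO against WT organoids.

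**Figure D3:**
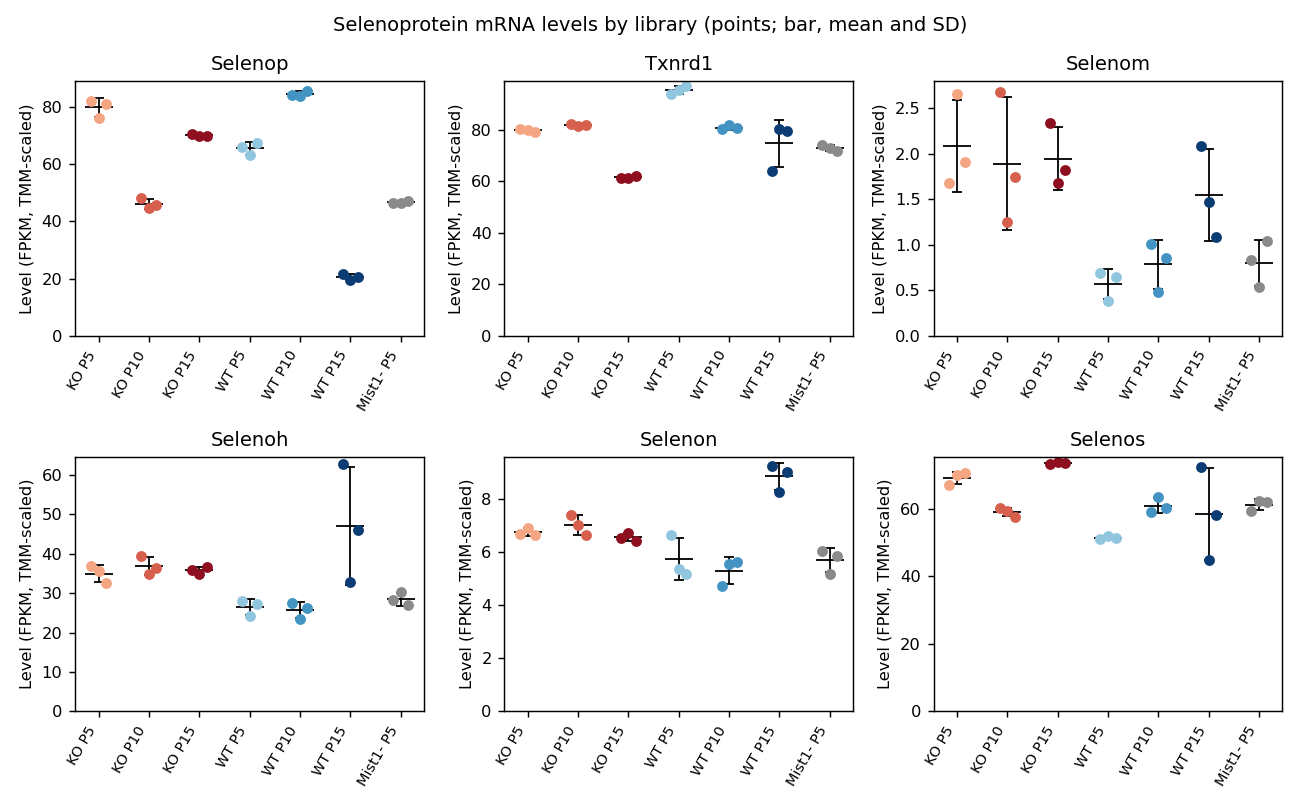
Level (TMM-scaled FPKM, linear axis from 0) of 6 selenoprotein transcripts in each library of the 7 groups; points are libraries and bars the mean ± SD (n = 3). Selenop libraries cluster tightly within every group, while Selenoh and Selenos libraries of WT passage 15 are spread from 32.8 to 62.6 FPKM and from 45 to 72.3 FPKM.

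Of the selenoproteins outside the ER, Selenoh was called at each passage. It was 36.9, 35.5 and 32.5 FPKM in KO libraries and 28.0, 24.1 and 27.3 FPKM in WT libraries at passage 5 (log2 0.40 ± 0.15, adjusted p = 0.0418). At passage 10 it was 39.4, 34.8 and 36.4 FPKM in KO libraries and 27.4, 23.5 and 26.1 FPKM in WT libraries (log2 0.52 ± 0.14, adjusted p = 0.00794). The groups were apart at both passages. The call at passage 5 was lost without WT replicate 2 (adjusted p = 0.109), WT replicate 3 (0.0541), KO replicate 1 (0.122) or KO replicate 2 (0.0969). At passage 15 the KO libraries were at 35.8, 35.0 and 36.7 FPKM and the WT libraries at 62.6, 32.8 and 45.9 FPKM (log2 -0.39 ± 0.14, adjusted p = 0.0276). There the groups overlapped, and without WT replicate 1 the log2 fold change was -0.13 (adjusted p = 0.273). Without 1 of the KO replicates the adjusted p was 0.0614, 0.0725 or 0.0512.

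Selenow showed the same spread in WT passage 15. It was 70.2, 69.3 and 75.3 FPKM in KO libraries and 147, 72.1 and 97.7 FPKM in WT libraries at that passage (log2 -0.56 ± 0.15, adjusted p = 0.00406), and the groups overlapped. At passage 5 it was 66.5, 68.9 and 71.0 FPKM in KO libraries and 87.8, 88.3 and 88.9 FPKM in WT libraries. These groups were well apart, yet the value missed the threshold in the fit of 21 libraries (log2 -0.36 ± 0.15, adjusted p = 0.0733) and passed without WT passage 15 (adjusted p = 6.58e-11). Msrb1, which reduces oxidised methionine, was called at no passage. Selenoo, a mitochondrial AMPylating enzyme, and Selenoi rose at passage 15 (log2 0.29 ± 0.09 and 0.35 ± 0.09), to 6.11 and 14.7 FPKM in KO against 5.00 and 11.5 FPKM in WT libraries. Selenoo missed the threshold without KO replicate 2 (adjusted p = 0.0839). Exons of Selenoo overlap those of Tubgcp6 on the other strand.

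Thioredoxin reductases return oxidised thioredoxin to its active form. Txnrd1, described because of its high level, was 80.4, 79.7 and 79.0 FPKM in KO libraries and 94.0, 95.2 and 97.1 FPKM in WT libraries at passage 5. The KO libraries were all lower (log2 -0.26 ± 0.06, adjusted p = 0.00277), though the call was lost under scaling by library totals alone (log2 -0.17, adjusted p = 0.0644). At passage 10 the groups overlapped, at 82.3, 81.5 and 82.0 FPKM in KO and 80.1, 81.8 and 80.7 FPKM in WT libraries (adjusted p = 0.847). At passage 15 it was 61.2, 61.4 and 62.1 FPKM in KO libraries and 64.2, 80.5 and 79.5 FPKM in WT libraries (log2 -0.28 ± 0.06, adjusted p = 0.00101). Txnrd2 and Txnrd3 were called at no passage.

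The promoter of Txnrd1 is shown beside these values because the gene is a known target of NRF2, the transcription factor of antioxidant genes. RefSeq gives 3 promoters, and the one at chr10:82858956-82859255, plus strand, holds the core of the antioxidant response element, TGACNNNGC, on the minus strand, 92 bases before the start site, in capitals.
Txnrd1 promoter: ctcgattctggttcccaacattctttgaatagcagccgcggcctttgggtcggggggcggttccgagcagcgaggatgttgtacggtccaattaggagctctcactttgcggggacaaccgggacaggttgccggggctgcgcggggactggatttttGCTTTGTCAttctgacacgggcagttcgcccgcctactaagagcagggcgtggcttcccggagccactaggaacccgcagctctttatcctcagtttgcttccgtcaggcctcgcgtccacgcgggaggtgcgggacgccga

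The letters TGACNNNGC were in 3 of the 36 member promoters (8.33%, Txnrd1, Lrp8 and Selenok) and in 12.4% of all 32851 promoters. Of 12 tested NRF2 targets outside the set, 0 rose and 9 fell in KO against WT organoids at passage 5 (median log2 -0.52), 0 rose and 7 fell at passage 10 (median -0.21), and 1 rose and 8 fell at passage 15 (median -0.25). Among them Nqo1, a quinone reductase, fell at passages 5 and 10 (log2 -1.55 ± 0.10 and -1.24 ± 0.09), and the haem oxygenase Hmox1 fell at passage 15 (log2 -1.27 ± 0.07). Txnrd1 itself fell at passages 5 and 15 and was not called at passage 10 (log2 0.02). The part of NRF2 in the levels of Txnrd1 was not tested.

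In the selenium recycling and selenophosphate step, Scly, which releases selenium from free selenocysteine, was 3.12, 3.29 and 3.58 FPKM in KO libraries and 4.53, 4.42 and 4.48 FPKM in WT libraries at passage 5. All KO libraries were lower (log2 -0.43 ± 0.09, adjusted p = 0.000911). It was also lower at passage 15 (3.63 ± 0.02 FPKM in KO and 4.64 ± 0.54 FPKM in WT libraries, log2 -0.35 ± 0.09, adjusted p = 0.00312), and it was 3.68 FPKM in KO and 4.30 FPKM in WT libraries at passage 10 (adjusted p = 0.059). Scly overlaps the antisense gene Gm17090. Sephs1, which lacks the selenocysteine of its paralog, rose at passages 5 and 10 (log2 0.23 ± 0.06 and 0.18 ± 0.06), the second not without WT replicate 1 (adjusted p = 0.0706) or 2 (0.0745), KO replicate 2 (0.101) or the low-count filter (0.0959). Sephs2, itself a selenoprotein and overlapped by Gm44729 on the other strand, was 32.3, 30.4 and 31.2 FPKM in KO libraries and 44.9, 33.5 and 38.0 FPKM in WT libraries at passage 15 (log2 -0.31 ± 0.07, adjusted p = 0.00173).

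Of the tRNA and insertion genes, Sepsecs, which makes selenocysteinyl-tRNA, fell at passage 10 and rose at passage 15. It was 6.51, 6.69 and 6.26 FPKM in KO libraries and 7.46, 7.79 and 8.08 FPKM in WT libraries at passage 10 (log2 -0.26 ± 0.09, adjusted p = 0.0335). That call was lost under library totals alone (adjusted p = 0.159), under limma on log2(FPKM + 1) (0.196), and without WT replicate 2 (0.0751) or 3 (0.111) or any 1 of the 3 KO replicates (0.0531 to 0.11). At passage 15 it was 7.16, 6.98 and 7.14 FPKM in KO libraries and 3.58, 5.57 and 5.02 FPKM in WT libraries (log2 0.58 ± 0.10, adjusted p = 4.91e-05). The KO libraries were all higher there, and the call held with each library left out in turn.

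The other calls among the insertion genes came at passage 15. The SECIS-binding paralog Secisbp2l was 9.82, 9.27 and 8.86 FPKM in KO libraries and 3.72, 9.14 and 7.33 FPKM in WT libraries (log2 0.46 ± 0.17, adjusted p = 0.0307), and the groups overlapped. Without KO replicate 1 or 2 its adjusted p was 0.0858 or 0.0614. Trnau1ap, a binding protein of the selenocysteine tRNA, was 8.26, 7.04 and 6.94 FPKM in KO and 13.6, 7.91 and 9.82 FPKM in WT libraries, which also overlapped (log2 -0.49 ± 0.13, adjusted p = 0.00494). Eefsec, whose exons overlap the antisense gene Gm44264 (log2 -0.31 ± 0.10, adjusted p = 0.0138), and the tRNA-modifying Trit1 (log2 -0.26 ± 0.10, adjusted p = 0.0385) fell. Without WT replicate 1 the adjusted p was 0.0901 for Eefsec and 0.203 for Trit1. Eefsec also lost its call without KO replicate 2 (0.0633), and Trit1 without WT replicate 3 (0.0564), any KO replicate (0.0647 to 0.0934) or the low-count filter (0.0812). Pstk and Secisbp2 were called at no passage.

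**Figure D4:**
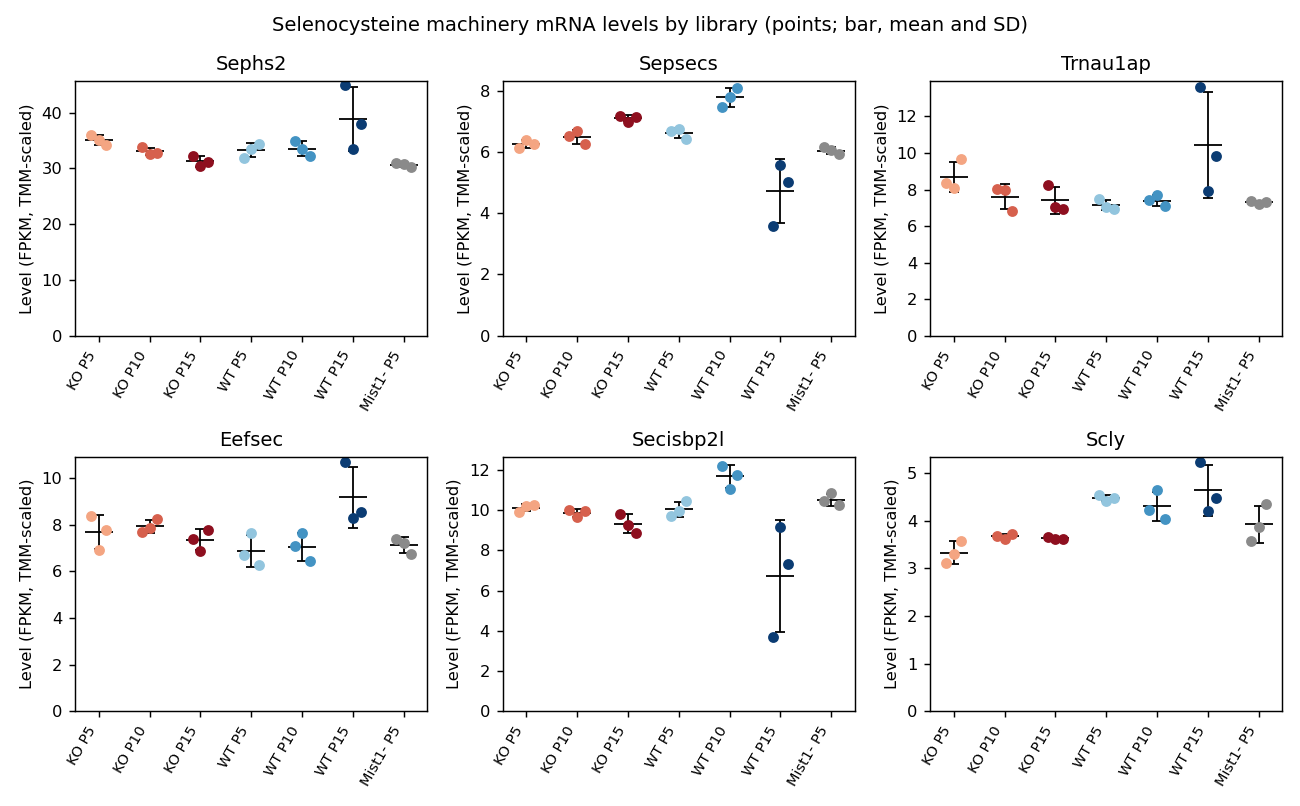
Level (TMM-scaled FPKM, linear axis from 0) of 6 genes of selenium recycling and selenocysteine insertion in each library of the 7 groups; points are libraries and bars the mean ± SD (n = 3). In WT passage 15, replicate 1 is highest for Trnau1ap (13.6 FPKM) and lowest for Secisbp2l (3.72 FPKM) among all libraries.

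Cell type and growth markers differed between the same groups, and in bulk samples fewer cells of a type cannot be told apart from less RNA per cell. Of 8 pit cell (surface mucous) markers, 0 rose and 8 fell in KO against WT organoids at passages 5 and 10, and 6 rose and 0 fell at passage 15. Their summed level was 1750 to 1780, 2640 to 2916 and 5021 to 5131 FPKM in KO libraries at passages 5, 10 and 15, and 5707 to 5924, 7899 to 8235 and 1013 to 1815 FPKM in WT libraries. Of 12 proliferation genes, 12 rose and 0 fell at passages 5 and 10, and 2 rose and 8 fell at passage 15. Selenoh moved with the proliferation counts at passages 5, 10 and 15, and Selenon at passages 10 and 15. Selenom and Sephs1 rose with them at passages 5 and 10 and were not called at passage 15. Sepsecs moved against them at passages 10 and 15. Selenop moved with the pit cell counts at passages 10 and 15 but against them at passage 5. The part of these markers in the members' differences was not tested.

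Mist1+ and Mist1- organoids were compared at passage 5 to ask how cultures of the 2 origins differ. In organoids labelled Mist1+, Selenop, Txnrd1 and Selenok rose, and Sephs1 and Pstk fell. This is 3 of 26 members higher and 2 lower, where 18.8% of all tested genes were higher and 16.2% lower (35%). The median log2 fold change of the members was -0.01, and their median size was 0.12, against 0.25 over all tested genes. Without WT passage 15 in the fit, 5 were higher and 5 lower (26.6% and 25.5% of all genes, 52.1% in all).

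Selenop was 66.0, 63.2 and 67.6 FPKM in Mist1+ libraries and 46.4, 46.5 and 47.3 FPKM in Mist1- libraries, with no overlap (log2 0.49 ± 0.05, adjusted p = 8.31e-08). Txnrd1 was 94.0, 95.2 and 97.1 FPKM in Mist1+ libraries and 74.2, 72.7 and 71.7 FPKM in Mist1- libraries (log2 0.39 ± 0.06, adjusted p = 3.52e-05). Both were higher in every Mist1+ library, as were 8 of 8 pit cell markers by test (summed 5707 to 5924 FPKM in Mist1+ and 786 to 825 FPKM in Mist1- libraries). Of the 12 proliferation genes, 0 rose and 8 fell in Mist1+ organoids (median log2 -0.29), with sums of 352 to 358 FPKM in Mist1+ and 429 to 432 FPKM in Mist1- libraries. The 6 tested neck cell and metaplasia markers were mixed, with 2 higher and 2 lower in Mist1+ organoids (median log2 -0.07). Among those lower, Tff2 was 41.4, 40.2 and 46.6 FPKM in Mist1+ and 824, 803 and 841 FPKM in Mist1- libraries (log2 -4.27 ± 0.18, adjusted p = 6.88e-14). The part of these markers in the members' differences was not tested.

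Selenok averaged 48.9 ± 2.06 FPKM in Mist1+ and 40.7 ± 1.00 FPKM in Mist1- libraries (log2 0.26 ± 0.08, adjusted p = 0.0151). It lost its call without Mist1- replicate 1 (adjusted p = 0.0569), Mist1+ replicate 1 (0.0788) or Mist1+ replicate 3 (0.0941). Sephs1 (log2 -0.18 ± 0.06) and Pstk (log2 -0.30 ± 0.11) lost theirs without Mist1- replicate 2 (0.0873 and 0.106) or Mist1+ replicate 2 (0.0596 and 0.0783), and Pstk also without Mist1- replicate 3 (0.087). Reads of Selenok can be shared with 5 pseudogenes named for it, and Pstk overlaps Ikzf5 on the other strand. Of 12 NRF2 targets outside the set, 7 rose and 1 fell in Mist1+ organoids, and the malic enzyme Me1 was among those that rose (log2 1.17 ± 0.05). The part of NRF2 in the members' differences was not tested. These Mist1+ libraries are also the WT libraries of the KO comparison at passage 5, so the 2 sets of values are not independent.

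Changes with passage were compared within each genotype. Between passages 5 and 10 few members moved. In KO organoids at passage 10 against 5, 0 rose and 1 fell, where 3.89% of all genes rose and 3.72% fell (7.61%). The member was Selenop, at 48.2, 44.6 and 45.7 FPKM at passage 10 and 82.2, 76.2 and 81.3 FPKM at passage 5 (log2 -0.79 ± 0.05, adjusted p = 7.58e-10). In WT organoids Selenop rose at passage 10 (log2 0.37 ± 0.05, adjusted p = 4.73e-05) and Txnrd1 fell (log2 -0.24 ± 0.06, adjusted p = 0.0249), 1 up and 1 down where 2.04% and 2.84% of all genes were called (4.88%). The Txnrd1 call ended when any 1 of the 6 libraries was left out (adjusted p 0.0686 to 0.124). Without WT passage 15 in the fit, 2 rose and 3 fell in KO organoids (11.6% and 10.4% of all genes, 22% in all) and 5 rose and 3 fell in WT organoids (9.16% and 9.14%, 18.3% in all).

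At passage 15 against 5, KO organoids showed 0 members higher and 2 lower (5.77% and 7.2% of all genes, 13% in all), and WT organoids 8 higher and 5 lower (24.7% and 26.6%, 51.3% in all). In KO organoids Txnrd1 fell, at 61.2, 61.4 and 62.1 FPKM in passage 15 and 80.4, 79.7 and 79.0 FPKM in passage 5 (log2 -0.37 ± 0.06, adjusted p = 0.000191). Selenop also fell there (log2 -0.19 ± 0.05, adjusted p = 0.0126), but not without KO passage 5 replicate 1 (0.0688) or 3 (0.0563) or without the low-count filter (0.153). Without WT passage 15 in the fit, 3 rose and 6 fell in KO organoids (14.2% and 15.5%, 29.7% in all).

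In WT organoids at passage 15, Selenop was 21.5, 19.5 and 20.5 FPKM, against 66.0, 63.2 and 67.6 FPKM at passage 5 (log2 -1.68 ± 0.05, adjusted p = 2.99e-16). Selenon was 9.25, 8.27 and 9.03 FPKM at passage 15 and 6.66, 5.38 and 5.19 FPKM at passage 5 (log2 0.62 ± 0.09, adjusted p = 1.09e-05). Both were well apart between the passages, and the call of each held in the fit of only those 6 libraries, as did those of Selenom and Selenoh. In the same comparison 0 of 8 pit cell markers rose and 8 fell (median log2 -2.18, summed 1013 to 1815 FPKM at passage 15 and 5707 to 5924 FPKM at passage 5). Of the 12 proliferation genes 11 rose and 0 fell (median log2 0.68, summed 523 to 536 FPKM at passage 15 and 352 to 358 FPKM at passage 5). The part of either list in the members' changes was not tested.

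Selenom was 2.09, 1.47 and 1.08 FPKM at passage 15 and 0.687, 0.381 and 0.648 FPKM at passage 5 (log2 1.41 ± 0.37, adjusted p = 0.00383). Selenoh was 62.6, 32.8 and 45.9 FPKM at passage 15 and 28.0, 24.1 and 27.3 FPKM at passage 5 (log2 0.83 ± 0.14, adjusted p = 9.00e-05). The WT libraries of passage 15 again spread over a wide range without reaching those of passage 5. Txnrd2 was 2.73, 1.82 and 2.11 FPKM at passage 15 and 1.76, 1.44 and 1.12 FPKM at passage 5 (log2 0.61 ± 0.15, adjusted p = 0.00235), and its counts are uncertain because the strand setting of the counting is not given.

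The insertion genes moved both ways in WT organoids. Sepsecs was 3.58, 5.57 and 5.02 FPKM at passage 15 and 6.68, 6.76 and 6.43 FPKM at passage 5 (log2 -0.48 ± 0.10, adjusted p = 0.000326). Secisbp2l was 3.72, 9.14 and 7.33 FPKM at passage 15 and 9.70, 9.97 and 10.5 FPKM at passage 5 (log2 -0.57 ± 0.17, adjusted p = 0.00899). Trnau1ap went the other way, at 13.6, 7.91 and 9.82 FPKM in passage 15 and 7.49, 7.06 and 6.93 FPKM in passage 5 (log2 0.54 ± 0.13, adjusted p = 0.00243). In the fit of the 6 libraries alone the adjusted p of these 3 was 0.066, 0.173 and 0.0709. Eefsec, Sephs1 and Sephs2 rose (log2 0.41, 0.25 and 0.22), and Txnrd1 and Selenoi fell (log2 -0.35 and -0.24), with adjusted p of 0.0391 or less. Without WT passage 15 replicate 1 the log2 fold change of Selenoi was -0.05 (adjusted p = 0.431), and its adjusted p was 0.108 to 0.147 without 1 of the passage 5 libraries.

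Each library was set against the mean of the other 2 libraries of its group. Over the tested members, the median absolute log2 deviation was 0.33, 0.33 and 0.11 in WT passage 15 replicates 1, 2 and 3. In the other 18 libraries this median was at most 0.076. Among other members, replicate 1 was the highest of the 3 for Selenow, Selenoh, Msrb1, Sephs2, Trnau1ap and Eefsec. It was the lowest for, among others, Secisbp2l, Selenoi, Sepsecs, Selenot and Txnrd1. Exon lengths were 736 to 2801 bases for the genes named as highest and 3436 to 13135 bases for those named as lowest. Those named are not all the members, and longer genes were also highest in replicate 1. These were Selenon (3619 bases), Selenoo (3744 bases), Txnrd2 (4401 bases), Scly (4549 bases), Secisbp2 (4626 bases), Selenof (5819 bases) and Pstk (7914 bases). The part of transcript length in these differences was not tested. Gpx4 was likewise highest in replicate 1. Leaving out replicate 2, 18 members were called in WT passage 15 against 5 and 19 in KO against WT at passage 15, compared with 13 and 15 with all libraries. With all libraries 51.3% and 48.9% of all genes were called. The shares of all genes without replicate 2 are not given, so the larger counts are not a result about the members alone.

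Whether the passage change differed between genotypes was tested as an interaction. From passage 5 to 10 it passed for 2 members, both lower (3.13% of all genes higher and 2.81% lower, 5.93% in all), and from passage 5 to 15 for 4 higher and 7 lower (19.7% and 18.6%, 38.3% in all). Selenop had the largest interaction from 5 to 10 (log2 -1.16 ± 0.07, adjusted p = 2.9e-10), and Selenom (-1.51 ± 0.47) and Selenop (1.49 ± 0.07) the largest from 5 to 15. Without WT passage 15 in the fit, 2 were higher and 4 lower from 5 to 10 (10.4% and 9.57%, 20% in all).

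Genes that work with the set were followed in lists of their own, read here against the shares of all genes given above. Of 14 thioredoxin system genes, 4 rose and 2 fell in KO against WT organoids at passage 5 (median log2 -0.03), 1 and 2 at passage 10 (0.00), and 3 and 7 at passage 15 (-0.25). The sulfiredoxin Srxn1, which repairs oxidised peroxiredoxins, fell at each passage (log2 -0.43 ± 0.05, -0.43 ± 0.05 and -0.74 ± 0.05), and the glutathione reductase Gsr fell at passages 5 and 15 (log2 -0.18 ± 0.05 and -0.51 ± 0.05). In Mist1+ against Mist1- organoids 1 rose and 3 fell (median 0.03), with the glutaredoxin Glrx lower (log2 -0.65 ± 0.11).

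Of 6 tested glutathione peroxidases, 1 rose and 3 fell at passage 5 (median -0.41), 1 and 2 at passage 10 (-0.29), and 0 and 4 at passage 15 (-0.83). The 6 include Gpx4, the gene deleted in the knockout, which is 1 of those that fell at passages 5 and 15 (log2 -0.38 ± 0.14 and -0.72 ± 0.14). Gpx2, the epithelial selenoenzyme of the gut, fell in KO organoids at each passage (log2 -0.97 ± 0.11, -0.58 ± 0.11 and -1.45 ± 0.11). Gpx8, an ER member without selenium, rose at passages 5 and 10 (log2 1.33 ± 0.31 and 2.54 ± 0.21) and fell at passage 15 (-3.02 ± 0.17). In Mist1+ against Mist1- organoids 4 rose and 1 fell (median 0.54), including Gpx2 (log2 1.75 ± 0.11). Of 3 methionine sulfoxide reductases without selenium, 0 rose and 0 fell at passages 5 and 10 by edgeR's test (median -0.08 and -0.18), and 0 rose and 2 fell at passage 15 (-0.27), among them Msrb2 (log2 -1.03 ± 0.25), and in Mist1+ organoids 1 rose (median 0.38).

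Of 13 ER quality control partners of Selenos, Selenof and Selenok, 5 rose and 1 fell in KO organoids at passage 5 (median 0.11), 3 and 1 at passage 10 (0.03), and 6 and 1 at passage 15 (0.11). The chaperone Calr rose at passage 5 (log2 0.24 ± 0.07), Zdhhc6, the acyltransferase that works with Selenok, rose at passage 10 (0.46 ± 0.05), and Uggt1, the folding sensor that binds Selenof, rose at passage 15 (0.43 ± 0.08). In Mist1+ organoids 1 rose and 3 fell (median -0.08). Of 9 genes of the CDP-ethanolamine pathway in which Selenoi acts, and its choline branch, 1 rose and 5 fell at passage 5 (median -0.22), 1 and 4 at passage 10 (-0.10), and 4 and 1 at passage 15 (0.13). The cholinephosphotransferase Chpt1 fell at passages 5 and 10 (log2 -0.28 ± 0.05 and -0.85 ± 0.05) and rose at passage 15 (1.79 ± 0.05), and in Mist1+ organoids 4 rose and 1 fell (median -0.02).

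Of 10 partners of the SECIS element and the selenocysteine tRNA, 3 rose and 0 fell in KO organoids at passages 5 and 10 (median 0.11 and 0.18), and 1 rose and 5 fell at passage 15 (-0.23). Nucleolin, Ncl, which binds SECIS elements, rose at passages 5 and 10 (log2 0.38 ± 0.05 and 0.50 ± 0.05) and fell at passage 15 (-0.30 ± 0.05). In Mist1+ organoids 0 rose and 2 fell (median -0.10), among them Sars, which charges the tRNA with serine (log2 -0.43 ± 0.07). Of 10 genes of nonsense-mediated decay, 0 rose and 2 fell at passage 5 (median 0.03), 0 and 1 at passage 10 (-0.05), and 4 and 3 at passage 15 (0.16). Upf2 fell at passages 5 and 10 (log2 -0.28 ± 0.08 and -0.23 ± 0.08), and in Mist1+ organoids 4 rose and 1 fell (median 0.10).

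Of 10 tested genes of selenium binding and entry, 1 rose and 0 fell in KO organoids at passage 5 (median 0.04), 4 and 0 at passage 10 (0.13), and 2 and 5 at passage 15 (-0.12). In Mist1+ organoids 0 rose and 8 fell (median -0.54), including the cystathionine lyase Cth (log2 -1.29 ± 0.11) and the transporter chain Slc3a2 (-0.57 ± 0.07). Of 6 thyroid hormone transporters and receptors, 2 rose and 1 fell at passage 5 (median -0.07), 2 and 0 at passage 10 (0.12), and 4 and 0 at passage 15 (0.78). The deiodinases themselves had at most 30 counts over all libraries. In Mist1+ organoids 1 rose and 3 fell (median -0.39).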

How the data were processed

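The deposited table gave read counts per gene for 56691 genes in 21 organoid libraries, as the authors counted them, and FPKM computed by the authors. Dividing each count by gene length and library total returned the deposited FPKM, to within 0.006, for 100% of values, and the counts were used. Per the submitters' processing notes, cutadapt 1.9.1, HISAT2 2.2.1 and HTSeq 0.6.1 were used with GRCm38.p5, and the strand setting is not given in the sources used here, so overlapping antisense genes are uncertain. Members were matched by symbol, and coordinates are those of GENCODE M21 (GRCm38). The members and lists were chosen with earlier results of these data known.

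Genes were filtered by edgeR 4.0.16 in R 4.3.3 (minimum count 10, minimum total 15), which kept 15115 genes holding 99.91% of the counts. After TMM scaling, groups were compared by quasi-likelihood with robust moderation in 1 model of 7 group means, with Benjamini-Hochberg adjustment over all 15115 genes and 0.05 as the threshold. Each SE was derived as the log2 fold change over the square root of F. Levels are TMM-scaled FPKM. Every library is given for called members with a log2 change of at least 0.4 and no overlap between groups, up to 8 per comparison, and partner lists name at most 2 called genes per direction, of which 1 is not reported here; Txnrd1, Lrp8, Selenow and other members given by library were chosen after their values were seen. Alternatives were other scalings, filters, limma 3.58.1 with a pseudocount of 1 or 0.1, DESeq2 1.42.0, fewer libraries in the fit and a replicate block. On simulated counts of 15115 genes, the code recovered 52.2% of 1.5-fold, 73.1% of 2-fold and 98.5% of 4-fold changes for knockout against wild type at passage 5. There 4.49% of calls were false. For Mist1+ against Mist1- it recovered 67.2%, 65.7% and 87.9% in that order, with 2% of calls false. The simulation drew all groups with the same spread per gene, unlike these data, so these shares do not give the error rates here.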

Additional observations from a re-analysis of the deposited data

Results flagged for a closer look

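The change with passage differed between KO and WT organoids, by the interaction term of edgeR's fit, for 2 members from passage 5 to 10. For Selenop the interaction was -1.16 on the log2 scale: its level fell in KO organoids (-0.79) and rose in WT organoids (0.37). For Selenos it was -0.47, with -0.23 in KO and 0.24 in WT organoids, neither past the threshold alone. With any 1 of its 12 libraries left out the interaction was -0.44 to -0.50, with an adjusted p of 0.0712 to 0.117. In the fit without WT passage 15 it was -0.47 (adjusted p = 6.47e-13), and both changes passed there (adjusted p = 2.66e-07 in KO and 4.36e-07 in WT organoids).

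From passage 5 to 15 the interaction passed for 11 members. It was higher for Selenop (1.49, with -0.19 in KO and -1.68 in WT organoids), Sepsecs (0.66, with 0.18 in KO and -0.48 in WT), Selenoo (0.36, with 0.24 in KO and -0.13 in WT) and Selenoi (0.34, with 0.11 in KO and -0.24 in WT). It was lower for Selenom (-1.51, with -0.10 in KO and 1.41 in WT organoids), Selenoh (-0.79, with 0.03 in KO and 0.83 in WT), Trnau1ap (-0.77, with -0.23 in KO and 0.54 in WT), Selenon (-0.67, with -0.04 in KO and 0.62 in WT), Eefsec (-0.47, with -0.06 in KO and 0.41 in WT), Sephs2 (-0.38, with -0.17 in KO and 0.22 in WT) and Sephs1 (-0.22, with 0.03 in KO and 0.25 in WT). Of these 11 members, only Selenop passed the test in KO organoids alone. Selenoi, Selenoo and Sephs1 lost the call without 1 or more single libraries (adjusted p up to 0.114, 0.131 and 0.149). All 11 values rest on the WT libraries of passage 15, whose replicates differed most.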

How the results depend on the processing

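Of 1209 alternative values for the 65 member differences called, 1071 kept direction and call, 138 kept the direction without the call and 0 reversed, and 29 of the 65 were called in every alternative. Members called in the fit without WT passage 15 numbered 10 for Mist1+ against Mist1-, 14 and 15 for KO against WT at passages 5 and 10, 8 for WT passage 10 against 5, 5 and 9 for KO passages 10 and 15 against 5, and 6 for the interaction from 5 to 10. With only the groups compared they were 10, 15, 16, 8, 4, 10 and 6 in that order, 3 for KO against WT at passage 15 and 4 for WT passage 15 against 5. Without WT passage 15 the share of all genes called grew too, from 30.1% to 47% for KO against WT at passage 5. Shares of all genes under the other alternatives, or with 1 library left out, are not given. The counts in this section are therefore not results about the members alone. No low-count filter gave 8 for Mist1+ against Mist1- and 1 for KO passage 15 against 5. Library totals alone gave 11 for KO against WT at passage 5 (10 higher and 1 lower) and 1 for WT passage 10 against 5, as did limma with either pseudocount. For the interaction from 5 to 10, median ratio scaling and robust moderation off each gave 1. The replicate numbers did not pair the libraries (63 same-number pairs, correlation of deviations -0.0398 to 0.173, 1 over 0.1), and the replicate block gave 1 for that interaction and moved no other count of members by over 1.5 times.

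With 1 library left out, members called ranged from 3 to 5 for Mist1+ against Mist1-, 6 to 9, 4 to 6 and 10 to 19 for KO against WT at passages 5, 10 and 15, 12 to 18 for WT passage 15 against 5, 1 to 3 for KO passage 15 against 5, and 8 to 17 for the interaction from 5 to 15. They were 1 each time for passage 10 against 5 in WT and in KO organoids and for the interaction from 5 to 10. The cause of these moves was not tested. Depth limits Selenom, with 8 to 75 counts per library, and the 4 members left untested.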
